A study of Homo sapiens with 6 samples.

Results

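The 53 genes described here encode the histone and DNA methylation machinery: Polycomb subunits, the lysine methyltransferases of histone H3, histone demethylases, and the DNMT and TET enzymes of DNA methylation. They were chosen by name, and each of the 53 symbols matched 1 of the 58735 Ensembl identifiers in the count tables through GENCODE 29. The name of the set is loose, because members such as EED, WDR5, PHC2 and CBX8 are subunits without a methyl-transferring or methyl-removing activity of their own. RNA-seq was done on cultured Jurkat cells (a human leukaemia line of T cell origin) infected with a lentiviral vector carrying a short hairpin RNA against SATB1 (shSATB1, 3 libraries) or a control hairpin (shCtrl, 3 libraries). SATB1 is a chromatin-organising protein of T cells, and the study asked how it shapes genome folding. Both groups are 1 cell line with 1 vector each. The labels do not say whether replicates came from different cultures, so the p-values speak only for the variation among these 6 libraries, which could be technical.

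Histone methylation marks active and silent chromatin. Polycomb repressive complex 2 (PRC2) methylates H3K27, and PRC1 binds that mark and ubiquitinates histone H2A, which keeps developmental genes silent. KMT2A to KMT2D and the SETD1 enzymes methylate H3K4 at promoters and enhancers. NSD enzymes and SETD2 methylate H3K36 in active genes, DOT1L methylates H3K79, and SUV39H, SETDB1 and EHMT enzymes write the silencing mark on H3K9. The KDM demethylases described here remove methyl groups from H3K4, H3K9, H3K27 or H3K36. DNMT enzymes methylate cytosine in DNA, and TET enzymes oxidise methylcytosine on the way to its removal. Several of these genes, among them TET2, DNMT3A, EZH2, SUZ12 and KDM6A, are recurrently mutated in blood cancers.

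SATB1 fell to 38.4% of its control level, at 102 ± 1.94 CPM in shSATB1 and 266 ± 11.6 CPM in shCtrl (CPM, reads scaled to library size; mean ± SD, n = 3 libraries per group, as for all CPM values). Libraries held between 26626539 and 28913623 reads in genes, at which 3 reads correspond to 0.104 to 0.113 CPM, a limit that covers counting error only. The 8 T cell markers summed to between 2270 and 2426 CPM in shSATB1 and to between 2346 and 2690 CPM in shCtrl. Of these 8, TRAC rose (log2 fold change 0.47), CD3D, CD247 and CD2 fell (-0.31, -0.24 and -0.39), and 4 did not pass. All 4 epithelial markers, 3 of 4 myeloid markers and 3 of 4 B cell markers stayed under 1 CPM in all 6 libraries, while the B cell gene CD79A stood at 50.4 CPM in shSATB1 and 60.5 CPM in shCtrl. Of the 4 fibroblast markers, which summed to between 21.3 and 23.1 CPM in shSATB1 and to between 15.5 and 18.0 CPM in shCtrl, 2 stayed under 1 CPM and COL1A1 carried most of the sum, with 20.8 CPM in shSATB1 and 15.5 CPM in shCtrl.

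The share of reads that fell in no annotated exon moved with the groups and with many of the members. It was 11.7%, 10.9% and 11.6% in shSATB1 replicates 1, 2 and 3, and 10.2%, 7.77% and 9.36% in shCtrl replicates 1, 2 and 3 (11.4% ± 0.435 and 9.10% ± 1.22). No shSATB1 library overlapped a shCtrl library in this share, and shCtrl 2 stood apart as the lowest. The share of reads that fit more than 1 gene also separated the groups, at 8.99%, 9.32% and 9.03% in shSATB1 and 9.54%, 10.1% and 9.84% in shCtrl, and its part in the results was not tested. Among the 20 members that rose, shCtrl 2 was the lowest shCtrl library for 18 and shCtrl 1 the highest for 19. This percentage is called the no-exon share below, and results are also given with it as a covariate in the fit. The share and the groups are partly confounded, so the covariate can absorb a group difference as well, and the part of the share in the results was not tested.

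Members rose more often than genes in general. All 53 passed the filter on low counts, with group means between 11.6 and 544 CPM and between 289 and 16107 reads per library. At an adjusted p under 0.05 (edgeR quasi-likelihood test, Benjamini-Hochberg adjustment over all 17520 genes tested), 20 of 53 members, 37.7%, rose in shSATB1, against 14.3% of all genes tested. In the other direction 7 members, 13.2%, fell, against 16.6% of all genes. The shares of all genes tested, here and below, take in genes of lower counts than any member. The median log2 fold change was 0.10 over the members and 0.01 over all genes. Libraries of the groups did not overlap for 35 of 53 members, against 45.1% of all genes tested. Changes were small: 23 of the 27 called members changed by under 1.5-fold. With the no-exon share as covariate, 4 of 53 members rose and 7 fell, against 854 and 1256 of the 17520 genes tested. The median was then -0.015 over the members and -0.0136 over all genes. The rises that held were KDM6B, KDM5B and CBX8, joined by BMI1, and the falls that held were PHC2, WDR5, DNMT1 and DNMT3B, joined by KMT2A, KMT2D and NSD2. When tested for a change beyond 1.2-fold, KDM6B, KDM5B, KDM5A, TET2 and TET3 rose and PHC2 fell. In that test 758 of the 17520 genes rose and 698 fell. Without shCtrl 2, 21 members rose and 9 fell, against 2580 and 2804 of 18043 genes.

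**Figure D1:**
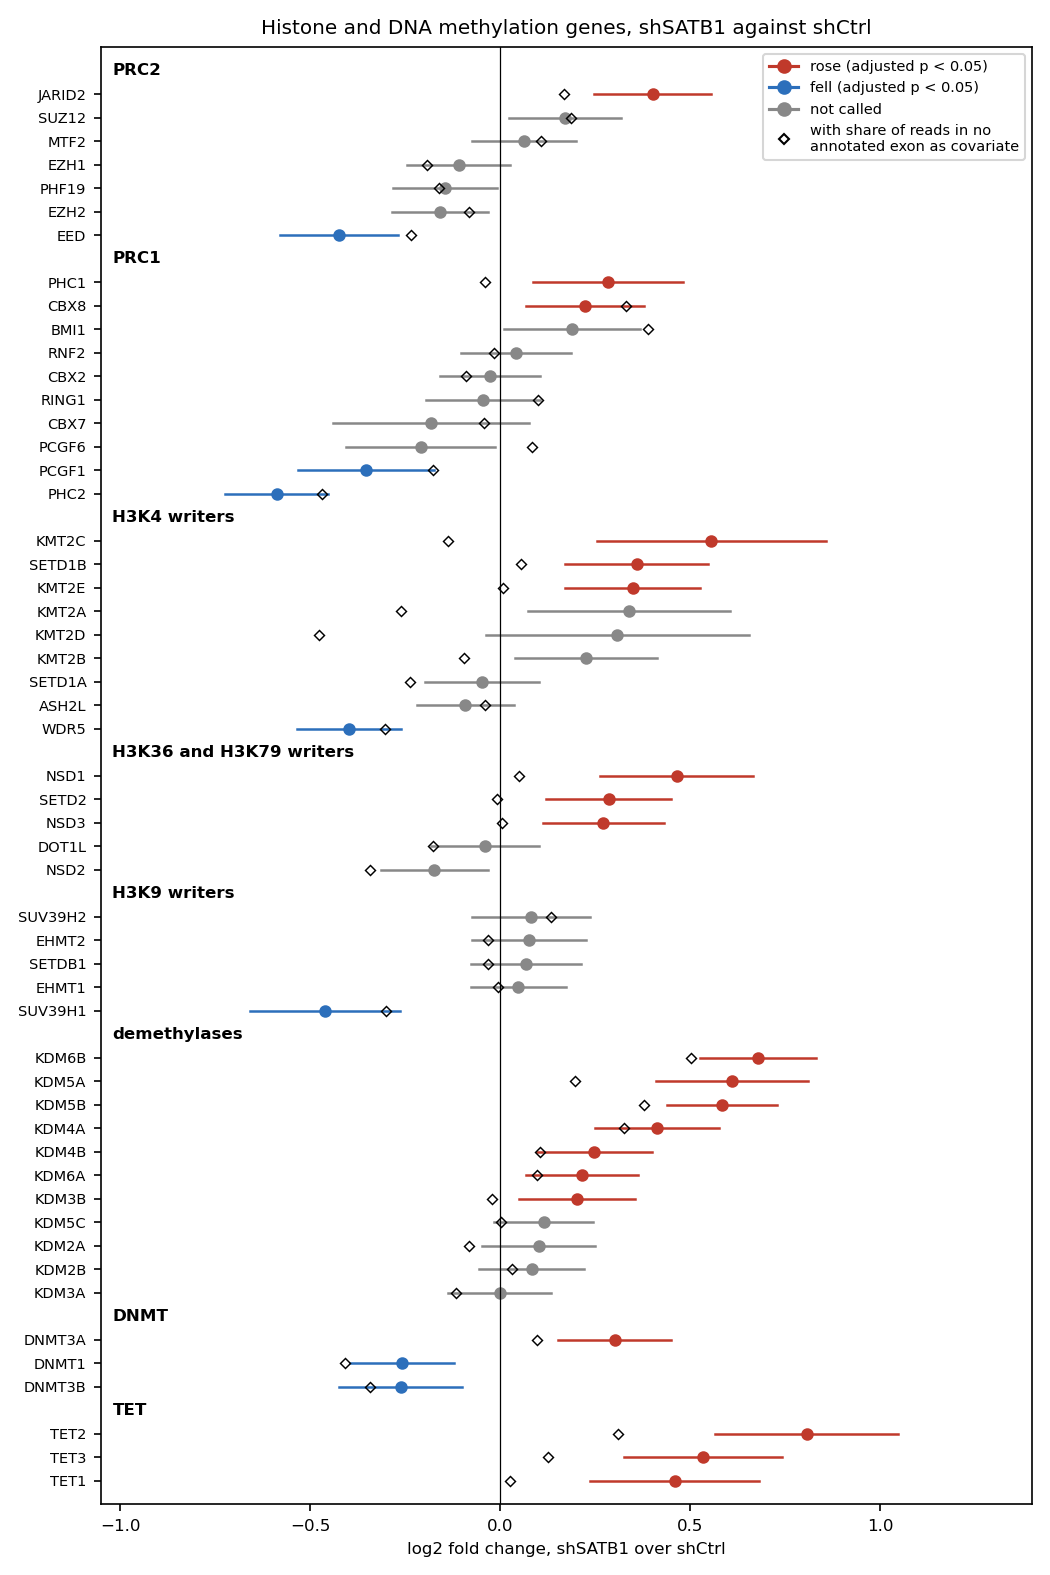
Log2 fold change of each of the 53 members, shSATB1 over shCtrl, grouped by role, from the edgeR fit (circle) with its 95% confidence interval (line), and from the fit with the no-exon share as covariate (open diamond). TET2, KDM6B, KDM5A and KDM5B lie farthest to the right, PHC2 lies farthest to the left at -0.59, and the diamonds of KMT2A, KMT2C and KMT2D lie on the other side of 0 from their circles.

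Exonic length went with the fold change across the genome, and the members that rose are long. Among genes with a mean of at least 8 CPM, sorted into 5 equal groups by exonic length, the median log2 fold change was 0.12 in the longest group, in which 33.9% of all genes rose, and -0.21 in the shortest. The longest group, from 8562 bases upward, holds 23 of the members, of which 12 rose and 1 fell, with a median log2 fold change of 0.29. The median exonic length was 9694 bases for the members that rose, 4630 bases for those that fell and 7040 bases for the others. After length and GC offsets were added for each library, 18 of the 20 rises and all 7 falls held their call. NSD3 (edgeR adjusted p = 0.0906) and KDM4B (edgeR adjusted p = 0.118) lost it.

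**Figure D2:**
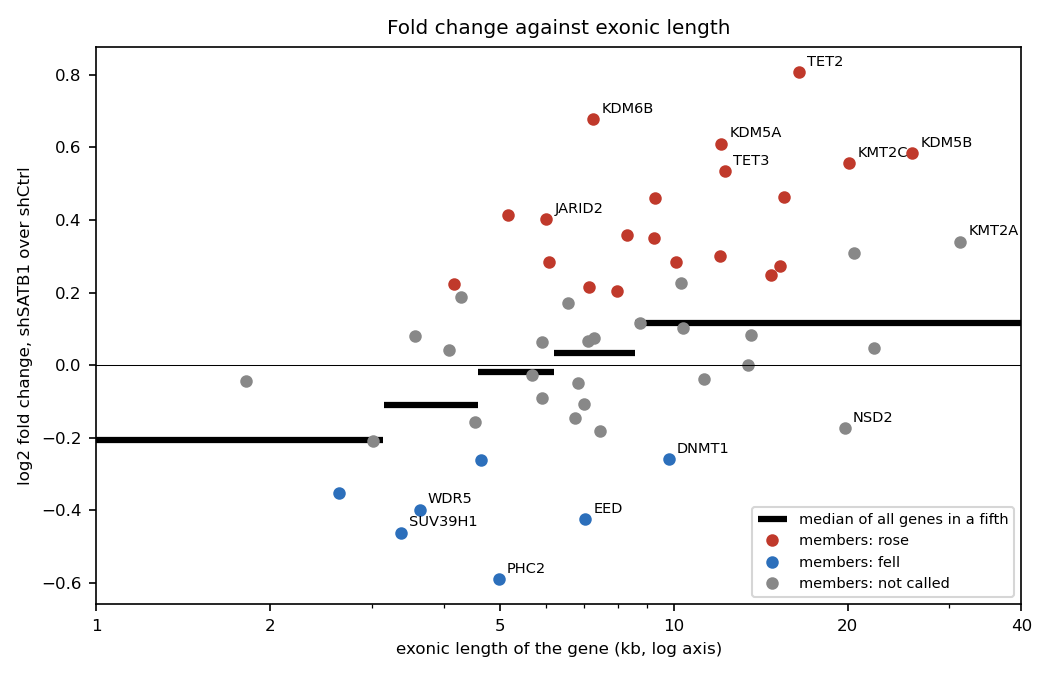
Log2 fold change of the members, shSATB1 over shCtrl, against exonic length in kilobases on a log axis. Black bars give the median log2 fold change of all genes in each of 5 length groups, drawn within 1 to 40 kb, and run from -0.21 to 0.12, while KDM6B, KDM5A and TET2 lie above 0.6.

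Demethylase genes rose most widely among the larger role groups. Of 11 members 7 rose (63.6%) and 0 fell in the edgeR fit, with a median log2 fold change of 0.22. Over all genes tested 14.3% rose and 16.6% fell. Most of the 11 lie in the longest length group, in which 33.9% of all genes rose. DESeq2 and limma-voom also called 0 falls among the 11, and the length and GC offsets called 1, KDM3A. KDM6B, whose enzyme removes methyl groups from H3K27, stood at 207, 220.4 and 208 CPM in shSATB1 1, 2 and 3, against 141, 119 and 137 CPM in shCtrl 1, 2 and 3 (replicates are given in this order throughout). The 3 knockdown libraries lay well above the 3 controls, with a log2 fold change of 0.68 (SE 0.0709, edgeR adjusted p = 1.78e-05). KDM5B, a demethylase of H3K4, stood at 242, 237 and 242 CPM in shSATB1, against 174, 148 and 159 CPM in shCtrl, a log2 fold change of 0.58 (SE 0.0677, edgeR adjusted p = 4.03e-05). These 2 rises held in all 16 alternative fits, and with the covariate their log2 fold changes were 0.50 and 0.38. KDM5A, the relative of KDM5B first found as a partner of the retinoblastoma protein, stood at 311, 289 and 313 CPM in shSATB1, against 231, 168 and 199 CPM in shCtrl. Its log2 fold change of 0.61 (SE 0.0934, edgeR adjusted p = 0.000329) became 0.20 with the covariate (adjusted p = 0.0799). The 2 KDM5 genes thus moved by similar amounts, whereas KDM5C, on the X chromosome, stood at 198 ± 2.47 CPM in shSATB1 and 183 ± 9.22 CPM in shCtrl and did not pass (edgeR adjusted p = 0.169).

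The KDM4 genes, whose enzymes act on H3K9 and H3K36, rose less. KDM4A stood at 45.1, 41.8 and 43.7 CPM in shSATB1, against 35.3, 32.9 and 29.9 CPM in shCtrl (log2 fold change 0.41, edgeR adjusted p = 0.00123; 0.33 and 0.0634 with the covariate). Exons of other genes cover 48.5% of its exonic length, among them an antisense gene, and the strand setting of the counting is not given, so part of its count is uncertain. KDM4B stood at 94.0, 104 and 97.6 CPM in shSATB1, against 87.8, 75.6 and 85.3 CPM in shCtrl (log2 fold change 0.25, edgeR adjusted p = 0.0163). KDM6A, the X-linked relative of KDM6B, stood at 49.6, 48.1 and 46.5 CPM in shSATB1, against 44.1, 39.6 and 40.4 CPM in shCtrl (log2 fold change 0.22, edgeR adjusted p = 0.0285). KDM3B, an H3K9 demethylase gene, rose by a log2 fold change of 0.20 (edgeR adjusted p = 0.0430), and its relative KDM3A stood at 101 CPM in both groups. The calls of KDM4B, KDM6A and KDM3B depended on which library was left out. KDM4B lost its call without shSATB1 2 or 3 (adjusted p = 0.0695 and 0.0525), KDM6A without shSATB1 1, 2 or 3 or shCtrl 3 (0.0533 to 0.125) and KDM3B without any library but shCtrl 1 (0.0577 to 0.152). KDM6A also lost it with no filter on low counts (adjusted p = 0.0663). With the covariate the log2 fold changes of KDM4B, KDM6A and KDM3B were 0.11, 0.10 and -0.020, and none passed. KDM2A and KDM2B, demethylases of H3K36 that bind CpG islands, did not pass, with log2 fold changes of 0.10 and 0.08.

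All 3 TET genes rose. Over all genes tested 14.3% rose, and 33.9% in the longest length group, to which all 3 belong. TET2 stood at 58.5, 51.4 and 59.4 CPM in shSATB1, against 39.4, 27.0 and 30.4 CPM in shCtrl, which is 175% of the control level and the largest fold change of any member (log2 fold change 0.81, 95% interval 0.57 to 1.05, edgeR adjusted p = 0.000163). TET3 stood at 217, 222 and 221 CPM in shSATB1, against 175, 124 and 158 CPM in shCtrl (log2 fold change 0.53, edgeR adjusted p = 0.00111). TET1 stood at 33.9, 30.5 and 32.8 CPM in shSATB1, against 27.4, 19.7 and 23.6 CPM in shCtrl (log2 fold change 0.46, edgeR adjusted p = 0.00439). For each gene every knockdown library was above every control, and shCtrl 2 was the lowest library. Over all genes tested the groups did not overlap for 45.1%. The 3 calls held when any 1 library was left out, and TET2 and TET3 also passed a null hypothesis of a 1.2-fold change. With the covariate the log2 fold changes were 0.31 for TET2 (adjusted p = 0.0633), 0.13 for TET3 (adjusted p = 0.369) and 0.025 for TET1 (adjusted p = 0.937), so none of the 3 passed. Per kilobase of exonic length, TET3 had the highest level of the 3, at 18.0 CPM per kb in shSATB1 and 12.4 CPM per kb in shCtrl, while TET2 had 3.43 and 1.96 and TET1 had 3.49 and 2.54.

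DNA methyltransferase genes moved in both directions. Of 3 genes 1 rose and 2 fell, where 14.3% of all genes tested rose and 16.6% fell. DNMT1, the maintenance enzyme that copies methylation after replication, stood at 462, 451 and 441 CPM in shSATB1, against 573, 506 and 542 CPM in shCtrl (log2 fold change -0.26, edgeR adjusted p = 0.00749). DNMT3B, a de novo methyltransferase gene, stood at 34.6, 37.1 and 33.7 CPM in shSATB1, against 45.6, 40.7 and 40.03 CPM in shCtrl (log2 fold change -0.26, edgeR adjusted p = 0.0174). The other de novo gene, DNMT3A, stood at 209, 216 and 217 CPM in shSATB1, against 189, 158 and 174 CPM in shCtrl (log2 fold change 0.30, edgeR adjusted p = 0.00507). Groups did not overlap for any of the 3 genes, with DNMT1 and DNMT3B lower and DNMT3A higher in shSATB1. The same lack of overlap was seen for 45.1% of all genes tested. With the covariate the falls were larger, at -0.41 for DNMT1 and -0.34 for DNMT3B, and both passed, while DNMT3A, at 0.098, did not (adjusted p = 0.485). The DNMT1 call was lost without shSATB1 3 (adjusted p = 0.0586), and the DNMT3B call without shSATB1 1 or 3 (adjusted p = 0.0848 and 0.0991).

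**Figure D3:**
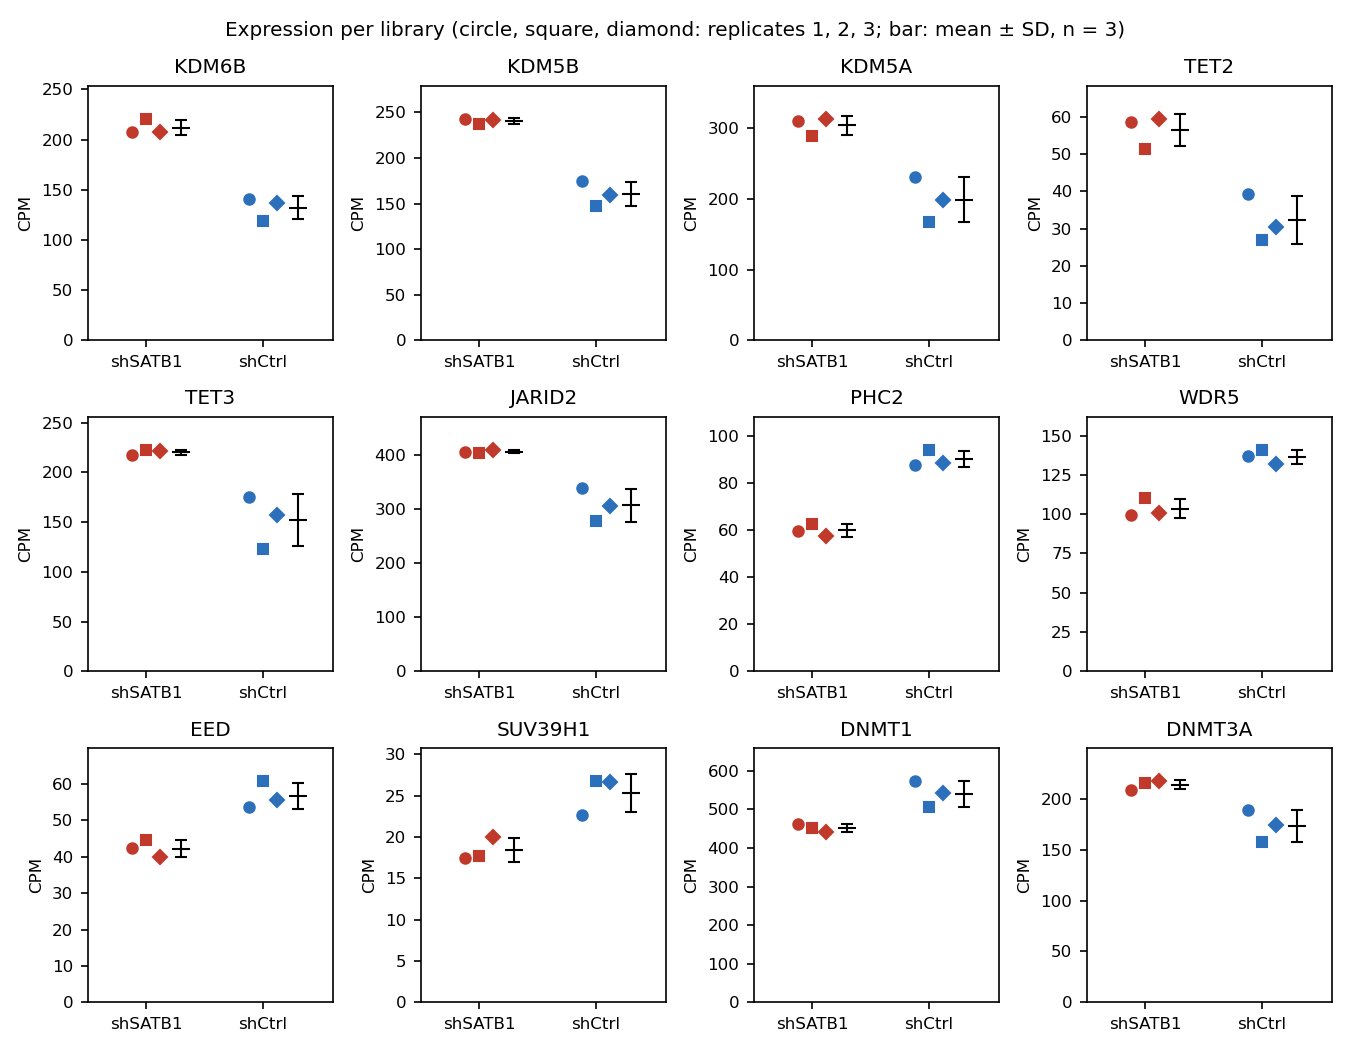
CPM of 12 members in each library, shSATB1 left of shCtrl, with circle, square and diamond for replicates 1, 2 and 3 and a bar for the mean ± SD (n = 3), on axes that start at 0. Groups do not overlap for any of these 12 genes, nor for 45.1% of all genes tested. The square of shCtrl 2 is the lowest control for KDM6B, KDM5B, KDM5A, TET2, TET3, JARID2, DNMT1 and DNMT3A.

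In GENCODE 29 (hg38), the protein-coding genes named most often here lie at chr17:7839904-7854796 (KDM6B, plus strand), chr1:202724495-202809470 (KDM5B, minus strand), chr4:105145875-105279816 (TET2, plus strand), chr2:73986404-74108176 (TET3, plus strand), chr1:33323623-33431052 (PHC2, minus strand), chr9:134135365-134159968 (WDR5, plus strand) and chr19:10133345-10231286 (DNMT1, minus strand). Promoters are shown for the genes whose rise or fall held in all 16 alternative fits, as far as an entry clear of annotated exons existed (KDM6B and PHC2, not KDM5B), and for TET2 and TET3, which rose together. Each sequence is the 250 bases before a RefSeq transcript start (GRCh38.p14), 5′ to 3′ on the gene's strand, and capitals mark the E-box CACGTG, the GC box GGGCGG and the CCAAT box on either strand. Some of these motifs overlap in the PHC2 entries.

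KDM6B, chr17:7833967-7834216, plus strand: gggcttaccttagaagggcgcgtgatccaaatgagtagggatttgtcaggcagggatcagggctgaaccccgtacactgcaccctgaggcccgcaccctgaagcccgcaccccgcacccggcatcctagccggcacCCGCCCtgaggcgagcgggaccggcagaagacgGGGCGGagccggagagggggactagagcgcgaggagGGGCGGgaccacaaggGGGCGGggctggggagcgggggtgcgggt

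TET2, chr4:105145625-105145874, plus strand: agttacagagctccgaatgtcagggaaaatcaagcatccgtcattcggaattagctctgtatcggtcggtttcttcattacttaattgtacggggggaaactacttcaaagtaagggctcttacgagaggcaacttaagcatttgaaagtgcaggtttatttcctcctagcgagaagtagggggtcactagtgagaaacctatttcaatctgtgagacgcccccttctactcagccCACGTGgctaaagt

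TET3, chr2:73984660-73984909, plus strand: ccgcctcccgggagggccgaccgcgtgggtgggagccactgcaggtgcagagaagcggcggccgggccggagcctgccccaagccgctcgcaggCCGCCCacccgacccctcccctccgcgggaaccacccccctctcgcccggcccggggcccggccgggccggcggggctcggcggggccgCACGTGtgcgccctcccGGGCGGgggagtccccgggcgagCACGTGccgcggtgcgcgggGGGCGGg

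TET3, chr2:74002442-74002691, plus strand: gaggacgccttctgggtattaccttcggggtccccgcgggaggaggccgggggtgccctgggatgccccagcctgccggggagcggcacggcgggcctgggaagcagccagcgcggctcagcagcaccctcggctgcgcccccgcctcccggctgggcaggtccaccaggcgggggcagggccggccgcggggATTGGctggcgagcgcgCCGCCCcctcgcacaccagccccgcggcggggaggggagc

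PHC2, chr1:33431096-33431345, minus strand: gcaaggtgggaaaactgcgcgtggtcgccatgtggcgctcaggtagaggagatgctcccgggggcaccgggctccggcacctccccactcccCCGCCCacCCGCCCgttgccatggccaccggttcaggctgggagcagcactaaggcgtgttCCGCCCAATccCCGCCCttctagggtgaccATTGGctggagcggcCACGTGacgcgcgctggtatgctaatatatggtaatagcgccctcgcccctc

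PHC2, chr1:33349900-33350149, minus strand: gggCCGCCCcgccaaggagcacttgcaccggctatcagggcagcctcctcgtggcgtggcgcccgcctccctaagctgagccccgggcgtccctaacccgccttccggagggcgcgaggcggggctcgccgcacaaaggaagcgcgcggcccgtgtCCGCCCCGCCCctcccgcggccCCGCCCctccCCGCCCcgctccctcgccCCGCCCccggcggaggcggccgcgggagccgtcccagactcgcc

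The entries shown differ in base composition. The shown TET2 entry has 45.6% G and C and 10 CpG dinucleotides. The TET3 entries have 84.0% and 79.2% with 37 and 27 CpG, and the shown KDM6B entry has 70.4% with 21. Entries left out for overlap with annotated exons differ from those shown. A second TET2 entry, with 250 exon bases, has 72.8% with 34 CpG. A second KDM6B entry, with 13 exon bases, has 50.4% with 1. The contrast between these genes thus depends on which entry is taken. The last 25 bases of the second KDM6B entry stand in a GENCODE transcript of the gene. Those of the shown KDM6B, upstream TET3 and upstream PHC2 entries do not. An E-box stands once in the shown TET2 entry, 2 times in the upstream TET3 entry and once in the upstream PHC2 entry. None of the other entries shown has an E-box, nor do the second TET2 and KDM6B entries. Over the 77 promoter entries found for 47 members, 18.2% hold an E-box, against 8.26% of 15790 entries of tested genes and 6.34% of all 35116 entries. A GC box is in 72.7% of the member entries and 61.6% of those of tested genes, and a CCAAT box in 33.8% and 32.6%. Entries of 1 gene can overlap and are not independent, and a match of letters does not show that a factor binds.

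Polycomb genes were called about as often as genes in general. Of 7 PRC2 genes 1 rose and 1 fell, each 14.3% of them, against 14.3% of all genes tested rising and 16.6% falling. JARID2, which guides PRC2 to its targets, stood at 406, 404 and 410 CPM in shSATB1, against 339, 278 and 305 CPM in shCtrl (log2 fold change 0.40, edgeR adjusted p = 0.000968). EED, the subunit that binds methylated H3K27 and stimulates the enzyme, stood at 42.4, 44.6 and 39.8 CPM in shSATB1, against 53.7, 60.7 and 55.7 CPM in shCtrl (log2 fold change -0.42, edgeR adjusted p = 0.000693). Neither pair of groups overlapped, and both calls held with each library left out. With the covariate the log2 fold changes were 0.17 for JARID2 (adjusted p = 0.135) and -0.23 for EED (adjusted p = 0.139). The methyltransferase gene EZH2 stood at 236, 233 and 241 CPM in shSATB1, against 256, 274 and 262 CPM in shCtrl. Its log2 fold change of -0.16 missed the threshold (edgeR adjusted p = 0.0570; 95% interval -0.28 to -0.031), although the groups did not overlap. EZH2 passed as a fall in 4 of 16 alternative fits, under DESeq2 (adjusted p = 0.0499), limma-voom (adjusted p = 0.0491), without shCtrl 1 (adjusted p = 0.0260) and with the length and GC offsets (adjusted p = 0.0217). EZH1, with 69.7 ± 3.28 CPM in shSATB1 and 75.1 ± 2.24 CPM in shCtrl, had a log2 fold change of -0.11. SUZ12, the scaffold of the complex, and the Polycomb-like subunits PHF19 and MTF2 had log2 fold changes of 0.17, -0.14 and 0.06 and did not pass. SUZ12 passed as a rise in 4 of 16 alternative fits, among them without shSATB1 2 (adjusted p = 0.0423) and without shCtrl 2 (adjusted p = 0.0207). PHF19 passed as a fall in 2, without shCtrl 2 (adjusted p = 0.0494) and with the length and GC offsets (adjusted p = 0.0159). EZH2 remained the PRC2 enzyme gene of the higher level, at 52.3 CPM per kb of exonic length in shSATB1 and 58.3 in shCtrl, against 9.97 and 10.7 for EZH1.

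Of 10 PRC1 genes 2 rose and 2 fell, a count near those same shares of all genes, with the 2 polyhomeotic genes on opposite sides. PHC2 stood at 59.7, 62.6 and 57.3 CPM in shSATB1, against 87.5, 93.8 and 88.5 CPM in shCtrl, with no overlap (log2 fold change -0.59, SE 0.0635, edgeR adjusted p = 2.35e-05). This was the largest fall of any member and held in all 16 alternative fits, at -0.47 with the covariate. PHC1 stood at 53.2, 53.5 and 49.8 CPM in shSATB1, against 47.7, 35.9 and 44.9 CPM in shCtrl (log2 fold change 0.28, edgeR adjusted p = 0.0299). The PHC1 call was lost without any library but shCtrl 1 (adjusted p = 0.0526 to 0.0995), and the covariate also ended it (-0.040, adjusted p = 0.872). PCGF1, the ring-finger partner in a PRC1 variant with KDM2B, stood at 15.98, 17.0 and 16.2 CPM in shSATB1, against 19.7, 22.3 and 20.8 CPM in shCtrl (log2 fold change -0.35, edgeR adjusted p = 0.00578; adjusted p = 0.483 with the covariate). CBX8, a chromodomain reader of methylated H3K27, stood at 46.6, 48.5 and 53.2 CPM in shSATB1, against 40.6, 44.6 and 41.8 CPM in shCtrl (log2 fold change 0.22, edgeR adjusted p = 0.0301). CBX8 kept its call with the covariate (0.33, adjusted p = 0.0394) but lost it without shSATB1 2 or 3 or shCtrl 1 or 3 (adjusted p = 0.0558 to 0.145) and with no filter on low counts (adjusted p = 0.0505). The ubiquitin ligase genes RING1 and RNF2 did not pass, with log2 fold changes of -0.04 and 0.04. BMI1, another ring-finger partner, stood at 66.7 ± 4.67 CPM in shSATB1 and 58.5 ± 6.53 CPM in shCtrl and missed the threshold (0.19, edgeR adjusted p = 0.103). It passed as a rise in 3 of 16 alternative fits, with the covariate (0.39, adjusted p = 0.0123), without shCtrl 2 (0.27, adjusted p = 0.00540) and with the length and GC offsets (0.18, adjusted p = 0.0453). A readthrough gene with COMMD3 covers 23.3% of its exonic length. CBX2, CBX7 and PCGF6 had log2 fold changes of -0.03, -0.18 and -0.21 and did not pass. CBX7 passed as a fall without shSATB1 2 (-0.33, adjusted p = 0.0462), and PCGF6 without shCtrl 1 (-0.30, adjusted p = 0.0100). CBX7, at 11.6 ± 2.08 CPM in shSATB1 and 13.2 ± 0.875 CPM in shCtrl, had the lowest mean CPM of all members.

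H3K4 methyltransferase genes gave the clearest case of a difference that moved with the no-exon share. KMT2D, whose enzyme acts at enhancers, stood at 560.2, 533 and 538 CPM in shSATB1, against 578, 294 and 445 CPM in shCtrl. The shCtrl libraries held both the lowest and the highest value of all 6 and followed the order of that share. The log2 fold change was 0.31 (edgeR adjusted p = 0.164). It turned to -0.48 and passed as a fall once the covariate was added (edgeR adjusted p = 2.10e-05). It passed as a rise without shCtrl 1 (0.55, adjusted p = 1.26e-05) and with no filter on low counts (0.30, adjusted p = 0.000110), and stood at 0.09 without shCtrl 2 (adjusted p = 0.319). KMT2A, the gene rearranged in MLL leukaemia, stood at 273, 255 and 266 CPM in shSATB1, against 255, 157 and 215 CPM in shCtrl. It missed the threshold as a rise (0.34, adjusted p = 0.0509) and passed as a fall with the covariate (-0.26, adjusted p = 0.0189). It passed as a rise in 8 of 16 alternative fits, among them without shCtrl 1 (0.50, adjusted p = 8.79e-06), without shCtrl 2 (0.17, adjusted p = 0.0283) and with no filter on low counts (adjusted p = 2.97e-05). KMT2C, the close relative of KMT2D, stood at 226, 202 and 212 CPM in shSATB1, against 185, 105 and 146 CPM in shCtrl, without overlap (log2 fold change 0.56, edgeR adjusted p = 0.00840; -0.14 and 0.312 with the covariate). KMT2B, at 166 ± 4.08 CPM in shSATB1 and 142 ± 20.4 CPM in shCtrl, missed the threshold (0.23, edgeR adjusted p = 0.0619). It passed as a rise in 5 of 16 alternative fits, among them without shCtrl 1 (0.32, adjusted p = 0.000659), with no filter on low counts (adjusted p = 0.0163) and under DESeq2 (adjusted p = 0.0426). With the covariate KMT2B stood at -0.095 and did not pass, and without shCtrl 2 at 0.12 (adjusted p = 0.108).

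**Figure D4:**
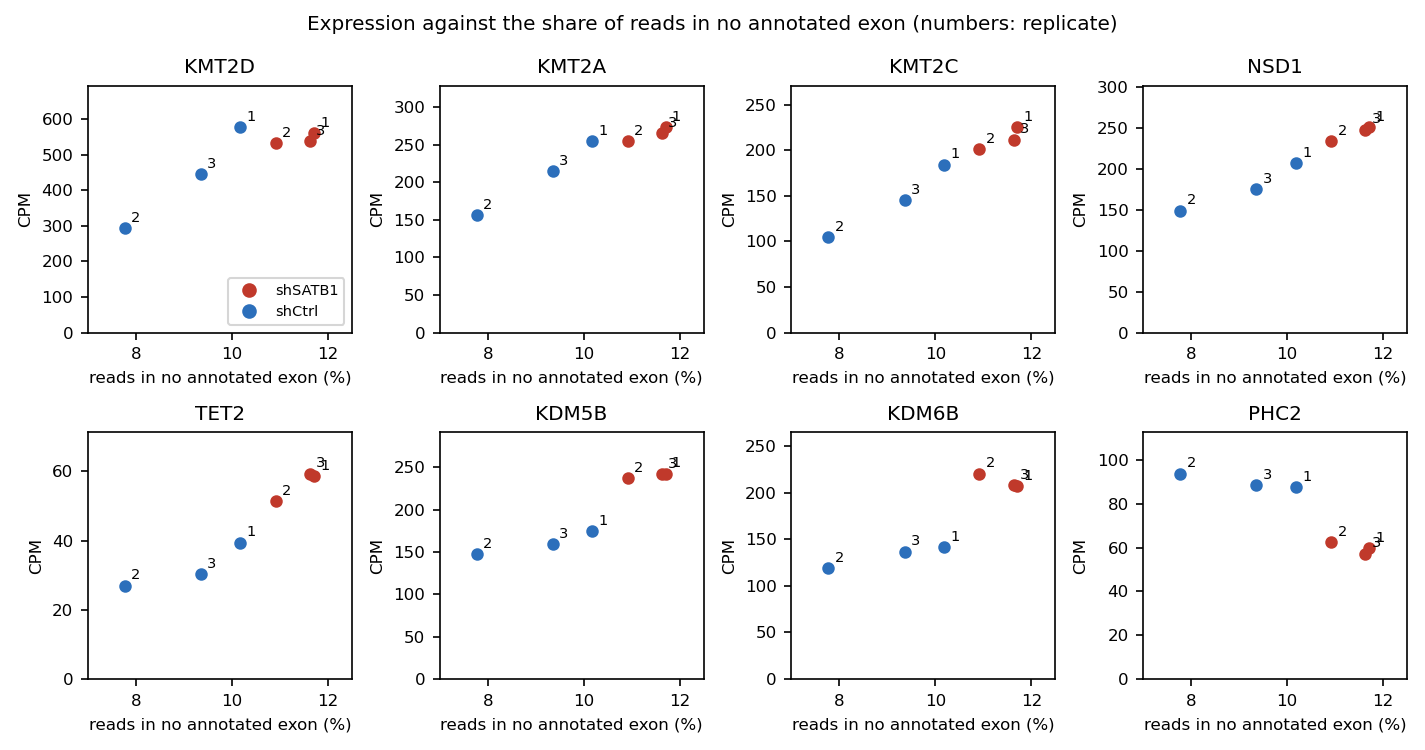
CPM of 8 members in each library against the percentage of reads in no annotated exon, with shSATB1 and shCtrl in different colours and the replicate number beside each point. For every gene but PHC2 the shCtrl libraries climb with the share from 7.77% to 10.2%. For KMT2D and KMT2A shCtrl 1 at 10.2% reaches or passes shSATB1 2 at 10.9%. For KMT2C, NSD1, TET2, KDM5B and KDM6B shCtrl 1 stays below shSATB1 2, by differing amounts, and for PHC2 it stays above.

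Among the other H3K4 genes, 2 more rose and 1 fell. In the whole group of 9, 33.3% rose and 11.1% fell, against 14.3% and 16.6% of all genes tested. KMT2A to KMT2E lie in the longest length group, in which 33.9% of all genes rose and 10.9% fell. SETD1B, the enzyme gene of a complex that trimethylates H3K4, stood at 121, 130 and 121 CPM in shSATB1, against 109, 81.9 and 98.97 CPM in shCtrl (log2 fold change 0.36, edgeR adjusted p = 0.00685). KMT2E, placed with the H3K4 genes by its name, stood at 148, 137 and 142 CPM in shSATB1, against 125, 96.5 and 114 CPM in shCtrl (log2 fold change 0.35, edgeR adjusted p = 0.00598). Both kept their calls with each library left out, and with the covariate both were near 0 (0.056 and 0.0091, adjusted p = 0.768 and 0.966). WDR5, the scaffold shared by the KMT2A to KMT2D and SETD1 complexes, went the other way. It stood at 99.5, 111 and 101 CPM in shSATB1, against 137, 141 and 132 CPM in shCtrl. Its log2 fold change was -0.40 (SE 0.0636, edgeR adjusted p = 0.000460), and the call held in every alternative fit except the 1.2-fold null hypothesis (adjusted p = 0.0706), with -0.30 under the covariate. ASH2L, another shared subunit, and SETD1A had log2 fold changes of -0.09 and -0.05 and did not pass.

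Of 5 H3K36 and H3K79 methyltransferase genes 3 rose, or 60%, against 14.3% of all genes tested. All 5 lie in the longest length group, in which 33.9% of all genes rose. NSD1 stood at 251, 234 and 248 CPM in shSATB1, against 208, 149 and 176 CPM in shCtrl (log2 fold change 0.46, edgeR adjusted p = 0.00221). SETD2, the gene of the H3K36 trimethylase, stood at 239, 222 and 229.8 CPM in shSATB1, against 210.2, 168 and 189 CPM in shCtrl (log2 fold change 0.29, edgeR adjusted p = 0.0124). NSD3 stood at 222, 207 and 218 CPM in shSATB1, against 198, 161 and 177 CPM in shCtrl (log2 fold change 0.27, edgeR adjusted p = 0.0128). In all 3 genes shCtrl 1 was the control nearest to the knockdown and shCtrl 2 the farthest. The covariate brought them to 0.051, -0.0084 and 0.0057, and none passed. SETD2 lost its call without shSATB1 1 or shCtrl 3 (adjusted p = 0.0624 and 0.0507), and NSD3 without shSATB1 1 or 3 or shCtrl 3 (adjusted p = 0.0565 to 0.0613). NSD2, the relative joined to the immunoglobulin locus in myeloma, stood at 450.0 ± 3.27 CPM in shSATB1 and 507 ± 36.2 CPM in shCtrl. It missed the threshold (-0.17, adjusted p = 0.0590), and passed as a fall in 6 of 16 alternative fits, among them without shCtrl 2 (-0.22, adjusted p = 0.00140), under DESeq2 (adjusted p = 0.0394), with the covariate (-0.34, adjusted p = 0.000399) and with the length and GC offsets (-0.36, adjusted p = 0.000122). DOT1L had a log2 fold change of -0.04 and did not pass, but passed as a fall with the length and GC offsets (-0.15, adjusted p = 0.0153).

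H3K9 methyltransferase genes mostly stayed under the threshold, with 0% rising and 20% falling, against 14.3% and 16.6% of all genes tested. Of 5 genes 1 fell, SUV39H1, which encodes an enzyme of constitutive heterochromatin, with 17.4, 17.7 and 20.1 CPM in shSATB1, against 22.6, 26.8 and 26.6 CPM in shCtrl. The groups did not overlap (log2 fold change -0.46, SE 0.0922, edgeR adjusted p = 0.00205), and the call ended with the covariate (-0.30, adjusted p = 0.180). An opposite-strand gene covers 20.3% of its exonic length. EHMT1 stood at 105, 108 and 106 CPM in shSATB1, against 105, 99.5 and 104 CPM in shCtrl, and its partner EHMT2 at 72.0, 78.6 and 70.7 CPM in shSATB1, against 74.2, 65.1 and 70.7 CPM in shCtrl. Both pairs overlapped, with log2 fold changes of 0.05 (95% interval -0.077 to 0.17) and 0.08 (-0.074 to 0.23). SUV39H2 and SETDB1 had log2 fold changes of 0.08 and 0.07 and did not pass.

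Ratios of related genes within each library need no scaling between libraries. They were taken per kilobase of exonic length for 19 pairs, and the groups did not overlap for 12 of them. No share over other gene pairs is given here, so this count has no background. Of single genes tested, 45.1% did not overlap. With 3 against 3 libraries a two-sided exact permutation test cannot give a p under 0.1, and the lowest p adjusted over the 19 pairs was 0.158, so no pair passed. The PHC1 to PHC2 ratio changed most, at 0.728, 0.699 and 0.711 in shSATB1, against 0.445, 0.313 and 0.415 in shCtrl, a 1.84-fold difference. The NSD1 to NSD2 ratio was 0.709, 0.664 and 0.710 in shSATB1, against 0.488, 0.405 and 0.440 in shCtrl. These are both long genes, of 15493 and 19776 exonic bases. The DNMT3A to DNMT3B ratio was 2.32, 2.24 and 2.48 in shSATB1, against 1.597, 1.49 and 1.67 in shCtrl, and the SUV39H1 to SUV39H2 ratio 0.356, 0.413 and 0.418 in shSATB1, against 0.542, 0.581 and 0.599 in shCtrl. KDM6A stood lower against KDM6B, at 0.244, 0.222 and 0.228 in shSATB1 and 0.317, 0.339 and 0.301 in shCtrl. In contrast the EZH1 to EZH2 ratio overlapped, at 0.201, 0.191 and 0.180 in shSATB1 and 0.196, 0.172 and 0.185 in shCtrl, as did KDM5A to KDM5B, EHMT1 to EHMT2 and KDM2A to KDM2B, whose means differed by less than 1 SD.

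**Figure D5:**
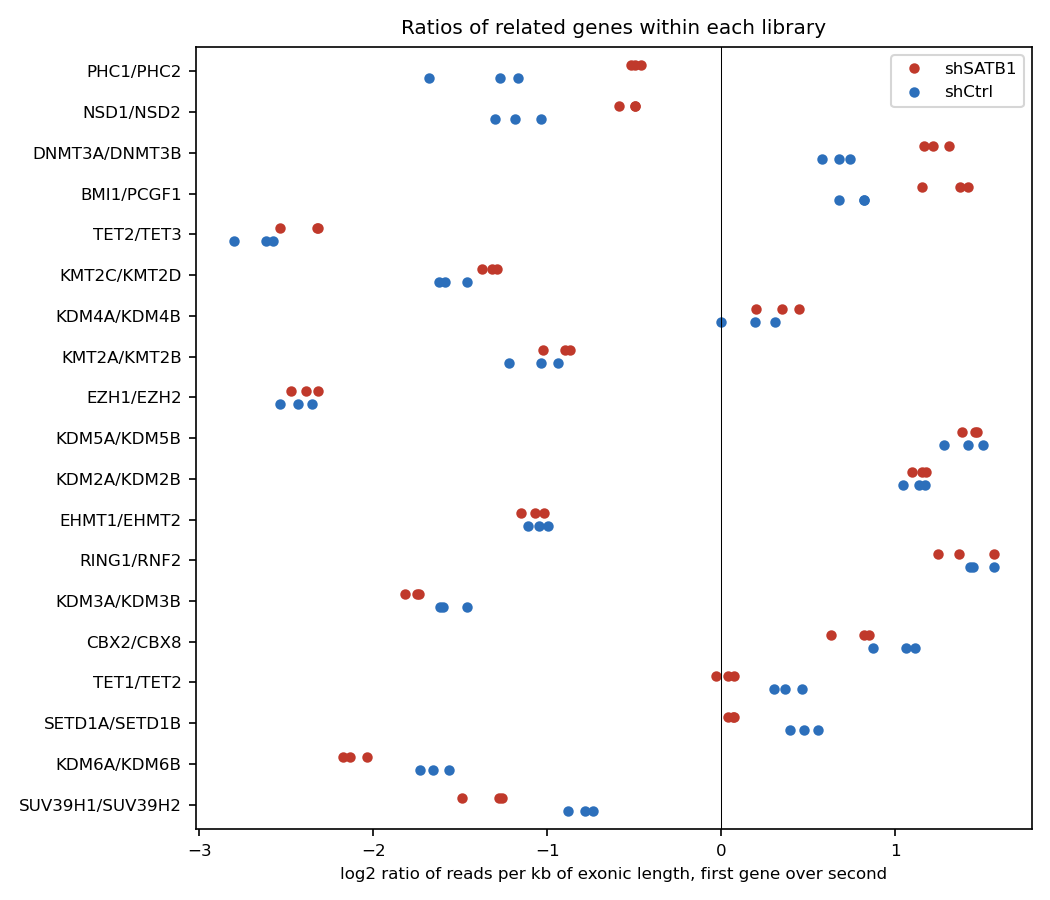
Log2 ratio of reads per kilobase of exonic length for 19 pairs of related members in each library, shSATB1 above shCtrl, ordered by the difference between groups. PHC1/PHC2 leads the pairs whose ratio was higher in shSATB1, SUV39H1/SUV39H2 is the last of those whose ratio was lower, and 12 pairs have no overlap.

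The level per kilobase of exonic length spanned a wide range among members. In shCtrl it was highest for EZH2 at 58.3 CPM per kb, DNMT1 at 55.1 and JARID2 at 51.1, and lowest for CBX7 at 1.77 and TET2 at 1.96. In shSATB1 JARID2 led with 67.6, ahead of EZH2 with 52.3 and DNMT1 with 46.1. The exonic length counts every annotated transcript of a gene, so the level of a gene with many unused exons is understated.

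Other genes of the same pathways, 83 in number, were called about as often as genes in general. Of these 14 rose (16.9%) and 15 fell (18.1%) at an edgeR adjusted p under 0.05, against 14.3% and 16.6% of all genes tested. That background takes in genes of low counts. Among genes with a mean of at least 8 CPM, 5.92% to 33.9% rose and 10.9% to 44.5% fell, depending on the length group. The 83 genes had a median log2 fold change of 0.00352. With the covariate 0 of them rose and 13 fell, against 854 and 1256 of the 17520 genes tested. Without the covariate DESeq2 called 13 rises and limma-voom 14. The other demethylase genes resembled the member demethylases in their counts, with 5 rises (45.5%) and 0 falls among 11 in the edgeR fit. KDM7A stood at 49.4, 43.1 and 51.0 CPM in shSATB1, against 38.9, 29.2 and 32.5 CPM in shCtrl, with a log2 fold change of 0.51 that became 0.11 with the covariate (adjusted p = 0.618). The others were HR, KDM1B, which encodes a flavin-dependent H3K4 demethylase, PHF2 and JMJD1C, with log2 fold changes of 0.38, 0.34, 0.28 and 0.27. PHF2 and JMJD1C were named because the count is small, after their values were seen, and JMJD1C lost its call without any library but shCtrl 1 and 2 (adjusted p = 0.0654 to 0.119). Of 17 other lysine methyltransferase genes 4 rose (23.5%) and 2 fell (11.8%). SMYD5 fell most, at 39.95 ± 1.71 CPM in shSATB1 and 57.8 ± 2.67 CPM in shCtrl (log2 fold change -0.53, edgeR adjusted p = 7.96e-05; -0.43 and 0.00260 with the covariate). ASH1L, an H3K36 methyltransferase gene, and KMT5B, an H4K20 methyltransferase gene, rose by log2 fold changes of 0.43 and 0.34, and with the covariate stood at -0.13 and 0.22 without passing. ASH1L also lost its call without shSATB1 1 or 3 (adjusted p = 0.0560 and 0.0531).

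Among 18 further Polycomb genes 2 rose (11.1%) and 3 fell (16.7%), near the 14.3% and 16.6% of all genes tested. PHC3, the third polyhomeotic gene, stood at 118, 102 and 114 CPM in shSATB1, against 95.3, 56.8 and 81.5 CPM in shCtrl (log2 fold change 0.51, edgeR adjusted p = 0.0102), lost its call without shSATB1 3 (adjusted p = 0.0504) and under DESeq2 (adjusted p = 0.0518), and stood at -0.16 with the covariate. PCGF3, named after its values were seen, rose by a log2 fold change of 0.26, which was 0.18 with the covariate (adjusted p = 0.121). RBBP7, a histone-binding subunit of PRC2, stood at 198, 199 and 197 CPM in shSATB1, against 228, 261 and 242 CPM in shCtrl (log2 fold change -0.30, edgeR adjusted p = 0.00302; adjusted p = 0.307 with the covariate). SCMH1 fell by 0.28 on the log2 scale, also with the covariate (-0.40, adjusted p = 0.00339), and lost its call without shSATB1 1 or 3 or shCtrl 3 (adjusted p = 0.0540 to 0.0685). E2F6, named after its values were seen, fell by 0.24 on the log2 scale and lost its call without any library but shCtrl 1 (adjusted p = 0.0772 to 0.108), while the covariate brought it to -0.053 (adjusted p = 0.832). Of 11 further genes of the H3K4 complexes 1 rose and 1 fell, 9.09% each, below the shares of all genes. BOD1L1 rose (0.29, edgeR adjusted p = 0.0347), with a loss of the call without shSATB1 1, 2 or 3 or shCtrl 3 (adjusted p = 0.0631 to 0.126). DPY30, a small core subunit next to WDR5 and ASH2L, fell (-0.36, edgeR adjusted p = 0.0101), with a loss of the call without shSATB1 1 or 3 (adjusted p = 0.0561 and 0.0593), and the covariate ended it too (-0.054, adjusted p = 0.861).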

How the data were processed

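RNA-seq of total RNA was deposited as raw counts of reads, 1 table by Ensembl gene for each of 6 libraries, neither normalized nor pooled. The build hg38 and the tools Trim Galore, STAR and HTSeq are named, without versions or settings, per the submitters' processing notes. Neither the annotation release nor the strand setting is given in the sources used here, so overlapping genes, antisense partners and pseudogene copies (such as those annotated for EZH2, SUZ12, BMI1 and ASH2L) are uncertain. The 5 lines that name no gene entered neither library sizes nor tests. Of the total, reads outside annotated exons took 7.77% to 11.7%, and ambiguous reads 8.99% to 10.1%, lower in every shSATB1 library than in any shCtrl library. All 58735 identifiers were found in GENCODE 29.

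Groups and replicate numbers came from the sample titles. The test was the quasi-likelihood F test of edgeR 4.0.16 under R 4.3.3, without covariates, after TMM normalization and filterByExpr (minimum count 10), adjusted over 17520 genes at a threshold of 0.05. Standard errors were derived from the F statistic. Alternatives were other normalizations and filters, DESeq2 1.42.0, limma-voom (limma 3.58.1), a replicate block, each library left out, a 1.2-fold null hypothesis, the no-exon share as covariate and per-library offsets for exonic length and GC content. The fit was tested on simulated counts. Paralog ratios used a pseudocount of 0.5. No 2 libraries were the same within sampling noise (chi-square per degree of freedom 2.80 to 20.5 within groups).

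The members and lists were chosen with earlier results of these data known. Per-library values are given in each role group for up to 4 called members of largest change (6 for demethylases), or, with fewer than 2 called, for the 2 with the highest mean CPM. KMT2A, KMT2D, EZH2 and SUV39H1, shown in addition, were chosen after their values were seen. Companion genes are named up to 3 per list by the same measure. Figures used Python 3.11.15 and matplotlib 3.10.9.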

Additional observations from a re-analysis of the deposited data

How the results depend on the processing

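Of 20 rises and 7 falls among the members, 13 and 5 held when any 1 library was left out. Without 1 library, counts ran from 14 to 22 rises and 5 to 9 falls among the members, from 1650 to 3218 and 1817 to 3562 among all genes, and from 9 to 17 and 8 to 22 among the companion genes. Testing for a change beyond 1.2-fold left 5 rises and 1 fall among the members, 758 and 698 among all genes, and 1 and 2 among the companions. With the no-exon share as covariate, 4 members, 854 of all genes and 0 companions rose, and 7, 1256 and 13 fell. With the correction for length and GC content, falls numbered 12 among the members and 25 among the companions. DESeq2 size factors, upper quartile factors, both filters, DESeq2 and limma-voom kept the counts of rises and falls in all 3 lists within 1.5 times.

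With the covariate the log2 fold change turned to 0.10 for RING1, -0.015 for RNF2, -0.040 for PHC1, 0.085 for PCGF6, -0.26 for KMT2A, -0.095 for KMT2B, -0.14 for KMT2C, -0.48 for KMT2D, -0.0084 for SETD2, -0.032 for SETDB1, -0.0045 for EHMT1, -0.031 for EHMT2, -0.082 for KDM2A, -0.020 for KDM3B, -0.13 for ASH1L, -0.14 for BOD1L1, -0.16 for PHC3, -0.12 for CBX5 and -0.11 for JMJD1C. With the correction for length and GC content it turned to -0.018 for MTF2, 0.093 for RING1, -0.15 for EHMT1 and -0.043 for KDM2B. KDM3A, at -0.00065, turned to 0.011 with upper quartile factors, 0.019 at a minimum of 1 CPM in 3 libraries and, with 1 library left out, to values up to 0.034 (range -0.026 to 0.034). RING1 ran from -0.077 to 0.015 with 1 library left out. The log2 ratios ran from -0.000603 to 0.093 for EZH1/EZH2, from -0.014 to 0.049 for KDM2A/KDM2B, from -0.025 to 0.086 for KDM5A/KDM5B and from -0.058 to 0.0063 for EHMT1/EHMT2. The cause was not tested for any of these.

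Whether equal replicate numbers pair the libraries cannot be told from 3 libraries per group. Deviations from the group means correlated at 0.0798, 0.0712 and 0.0032 for numbers 1, 2 and 3. Numbers 1 and 2 correlated best with the same number in the other group, and number 3 did not. With a replicate block 24 members rose and 8 fell, and among all genes 2783 rose and 3120 fell. The lowest member count was 289 reads in a library, and there were 3 libraries per group. No fit varied the depth.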

Other observations

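Genes that read methylation or supply its methyl donor moved mostly downward. Of 18 such genes 7 fell and 2 rose in shSATB1 (edgeR adjusted p under 0.05), against 16.6% of all genes falling. AHCY, which clears the S-adenosylhomocysteine left by every methyl transfer, stood at 125, 134 and 119.8 CPM in shSATB1, against 183, 207 and 186 CPM in shCtrl, with no overlap. Its log2 fold change of -0.61 (edgeR adjusted p = 3.32e-05) was -0.41 with the no-exon share as covariate (adjusted p = 0.000216), and the call held in all 16 alternative fits. UHRF1, which brings DNMT1 to newly replicated DNA, stood at 283, 313 and 309 CPM in shSATB1, against 401, 382 and 403 CPM in shCtrl (log2 fold change -0.39, edgeR adjusted p = 0.000480; -0.43 and 4.55e-05 with the covariate). It fell as DNMT1 did, and the cause was not tested. ATF7IP, a partner of SETDB1, rose (log2 fold change 0.42, edgeR adjusted p = 0.00284) and stood at 0.061 with the covariate (adjusted p = 0.764).

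The heterochromatin protein genes CBX1 and CBX5, chosen after their values were seen, moved apart. CBX1 stood at 216, 220.3 and 219 CPM in shSATB1, against 261, 271 and 273 CPM in shCtrl, and CBX5 at 735, 687 and 734 CPM in shSATB1, against 682, 521 and 627 CPM in shCtrl. With the covariate the CBX1 fall held (-0.25, adjusted p = 0.0185) and the CBX5 rise did not (-0.12, adjusted p = 0.274). CBX5 also lost its call without any library but shCtrl 1 and 2 (adjusted p = 0.0753 to 0.148). Of 8 arginine methyltransferase genes 2 fell and 0 rose in the edgeR fit, where 16.6% of all genes fell and 14.3% rose, so the count is near that of genes in general. PRMT1, the gene of the main enzyme of asymmetric arginine methylation, stood at 257, 290.2 and 271 CPM in shSATB1, against 330.0, 375 and 359 CPM in shCtrl (log2 fold change -0.38, edgeR adjusted p = 0.00110), and PRMT3 fell by 0.28 on the log2 scale. With the covariate both were lower without passing (adjusted p = 0.106 and 0.120).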
